A study of Ovis aries with 6 samples.

Results

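ITGB2, PLAUR and FCGR1A encode receptor proteins on the surface of myeloid cells, the lineage of monocytes, macrophages and granulocytes. Their mRNA was followed here in the skin of 2 sheep breeds, Aohan fine wool and small tail Han. The array carried 15008 different probes, and 4 of them belonged to these 3 genes: 2 to ITGB2, 1 to PLAUR and 1 to FCGR1A. RefSeq accessions gave names to 476 genes on the array in all. The probes of the receptors were found through the sheep RefSeq mRNA accession printed beside each probe. The 3 genes were chosen by their measured difference between the breeds on these same arrays, so for them that difference is a description. The calls of a fit over all probes are printed for them further on as a description too, and support nothing.

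The Aohan fine wool group had 3 animals and the small tail Han group had 3, each group made up of 1 ram and 2 ewes aged 12 months and kept in pens. Full-thickness skin of about 1 cm2 was taken from the side of the body, and each animal had 1 array with Cy3-labelled RNA. Which animal was the ram is not given by the labels, so sex was not modelled. Animals of a breed had a common father, and breed and sire family cannot be told apart. The arrays of a breed shared 1 scan time and none was common to both breeds, so that scan and breed cannot be told apart either. Replicate numbers name animals and do not pair them across breeds.

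ITGB2 (CD18) is the common beta chain of the leukocyte integrins. It reaches the cell surface only with an alpha chain such as ITGAL, ITGAM or ITGAX, and the pairs bind ICAM1 on endothelium and complement fragments on microbes. PLAUR is the urokinase receptor, a lipid-anchored protein that holds the protease urokinase (PLAU) at the cell surface, where it turns plasminogen into plasmin. FCGR1A (CD64) is the high-affinity receptor for IgG. In humans it is carried by monocytes and macrophages and is raised by interferon gamma. All 3 receptors serve resident and recruited immune cells in skin, and PLAUR is also made by keratinocytes and endothelial cells.

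Values are log2 of the processed Cy3 intensity minus the 75th percentile of the probes on the same array, so that 0 is the 75th percentile. Differences are Aohan minus small tail Han, with the standard error (SE) of a limma fit over all tested probes. A probe was tested when at least 3 of the 6 arrays had it well above background, a mark set by the scanner software. The 75th percentile was an intensity of 1103, 2048 and 1131 on Aohan arrays 1, 2 and 3, against 2309, 1837 and 1747 on small tail Han arrays 1, 2 and 3. Between 10774 and 13418 probes were well above background on the Aohan arrays, against 11055 to 12965 on the small tail Han arrays. Over 50 probes printed in 5 spots, spots of a probe varied by a median of 11.2% to 19.6% in Aohan sheep and 7.77% to 8.91% in small tail Han sheep (coefficient of variation within an array). Across the array, the median difference of the 12481 tested probes was 0.025.

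ITGB2 stood higher in Aohan skin and was well above background on all 6 arrays at both of its probes. The first probe, A_70_P030171, read -0.88, -0.37 and -0.73 in Aohan skin, against -1.40, -1.45 and -1.24 in small tail Han skin. Each Aohan animal lay above each small tail Han animal, with 0.36 between the nearest values of the breeds. The means were -0.66 ± 0.27 in Aohan sheep and -1.36 ± 0.11 in small tail Han sheep (SD, n = 3 each), a difference of 0.70 (SE 0.17), or 1.63-fold.

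The second ITGB2 probe, A_70_P030172, gave the same order of animals within Aohan sheep and a wider separation of the breeds. It read -0.65, -0.09 and -0.58 in Aohan skin, against -1.44, -1.47 and -1.25 in small tail Han skin. The values did not overlap and lay 0.61 apart at the nearest. Means were -0.44 ± 0.30 and -1.39 ± 0.12 (Aohan and small tail Han, SD, n = 3 each), a difference of 0.95 (SE 0.18), or 1.93-fold. Both probes carry the same mRNA accession, so they are not independent measurements of the animals. In a whole skin sample, fewer cells that carry a transcript and less of it per cell cannot be told apart.

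The raw intensities show how far the scaling enters these values. Before scaling, the second ITGB2 probe had intensities of 705, 1924 and 754 on the Aohan arrays, against 849, 663 and 733 on the small tail Han arrays. Aohan animals 1 and 3 were then inside the small tail Han range, and only Aohan animal 2 stood clear of it. The 75th percentiles of arrays 1 and 3 of the Aohan sheep were the lowest of the 6, which places these animals higher once scaled. With quantile normalization, and with the normalized log2 values that the authors deposited, both ITGB2 probes also separated the breeds.

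PLAUR was the one receptor not well above background on every array. Its difference was larger than those of ITGB2 and FCGR1A with the 75th percentile scaling, but below that of the second ITGB2 probe with normexp background correction, another way of removing local background (0.55 against 1.09), and without the surface correction of the scanner software (1.08 against 1.20). Its probe, A_70_P017866, read -4.12, -2.96 and -3.23 in Aohan skin, against -4.62, -5.33 and -4.44 in small tail Han skin. Aohan animal 1 lay closest to the small tail Han animals, 0.32 above the highest of them, and small tail Han animal 2 was the lowest of the 6. The means were -3.43 ± 0.61 in Aohan sheep and -4.80 ± 0.47 in small tail Han sheep (SD, n = 3 each), a difference of 1.36 (SE 0.36), or 2.57-fold.

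This probe was well above background on 2 of 3 Aohan arrays and 2 of 3 small tail Han arrays, and the exceptions were Aohan animal 1 and small tail Han animal 2. The processed intensities were 63.5, 264 and 121 in Aohan sheep, against 94.1, 45.5 and 80.6 in small tail Han sheep. The error that the scanner software attached to them was 23.3%, 10.1% and 11.2% in Aohan sheep, against 12.1%, 26.1% and 12.3% in small tail Han sheep. The largest errors thus belonged to the animals where the probe was not well above background. In Aohan animal 1, the software had raised the intensity of this spot by a factor of 1.72 to correct for uneven brightness across the slide. The factor was 1.19 and 1.14 in the other 2 Aohan animals and 1.21 in small tail Han animal 1. That correction was recorded for the Aohan arrays and for small tail Han array 1 only. Without it, PLAUR in Aohan animal 1 read -4.86, below the -4.44 of small tail Han animal 3, and the difference was 1.08 with overlapping breeds. With normexp, the PLAUR difference was 0.55 and the breeds overlapped.

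FCGR1A showed the smallest difference and a narrow small tail Han group. Its probe, A_70_P013681, was well above background on all 6 arrays and read -3.13, -2.72 and -3.23 in Aohan skin, against -3.56, -3.60 and -3.57 in small tail Han skin. The breeds did not overlap, with 0.33 between the nearest animals. Means were -3.03 ± 0.27 and -3.58 ± 0.02 (Aohan and small tail Han, SD, n = 3 each), a difference of 0.55 (SE 0.20), or 1.46-fold. The processed intensities of 126, 311 and 121 in Aohan sheep overlapped those of 196, 151 and 147 in small tail Han sheep. With normexp background correction the difference was 0.37 and the scaled values overlapped too. The small tail Han group was then not narrow, at -2.48, -3.03 and -3.05.

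**Figure D1:**
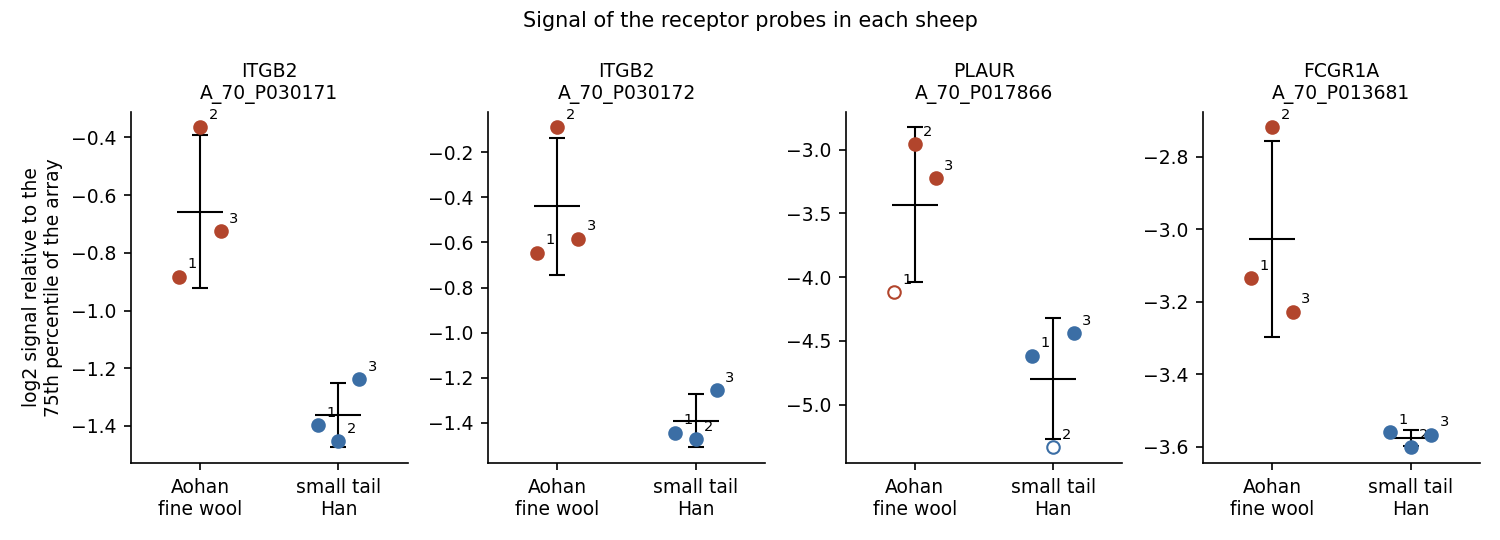
Scaled log2 signal (y axis, relative to the 75th percentile of each array) of the 4 probes of ITGB2, PLAUR and FCGR1A, 1 panel per probe, in Aohan sheep (left) and small tail Han sheep (right). Numbered points are animals, open circles mark arrays where the probe was not well above background, and bars are means ± SD (n = 3). Each panel has its own y range, which need not include 0, and no panel has an Aohan value inside the small tail Han range.

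Within each breed, the same animal stood at one end for all 3 receptors. Aohan animal 2 was the highest Aohan sheep at 4 of the 4 probes, a place it held at 33.3% of all tested probes. Small tail Han animal 2 was the lowest small tail Han sheep at 4 of the 4 probes, a place it held at 30.4% of tested probes. The 4 probes include 2 of the same gene, and 3 animals a breed allow no more than this count. The order depended on the scaling. With quantile or deposited log2 values, small tail Han animal 1 was the lowest of its breed at both ITGB2 probes. Small tail Han animal 2 was then the highest of its breed at FCGR1A (quantile, 7.19 against 7.08 and 7.07). With normexp, Aohan animal 3 stood above Aohan animal 2 at PLAUR (-2.70 against -2.91).

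The 4 receptor probes were all tested, and 3 of them, both ITGB2 probes and PLAUR, were among the probes higher in Aohan sheep at a limma Benjamini-Hochberg adjusted p under 0.05, while FCGR1A was not. Of all tested probes, 7.57% were higher by this call and 7.60% lower, or 15.2% in either direction. Nothing is read from the receptors' own count, because their difference chose them. The same holds for the overlap of the breeds, which was absent at all 4 receptor probes, at 34.2% of all tested probes in either direction and at 17.8% with Aohan sheep higher. The count of receptor probes called was 0 without small tail Han animal 2, and 1 without Aohan animal 2, without Aohan animal 3 or without small tail Han animal 3. It was 3 without either of the other 2 animals, and 0 by the per-probe test that the study's methods name (the methods' test), run with the same adjustment. Under normexp it was 2.

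Outside the call, FCGR1A differed by 0.55, and the smallest difference among the receptor probes inside it was 0.70, at the first ITGB2 probe. From the 5th to the 95th percentile, tested probes ran from -1.06 to 0.98, so the ITGB2 and FCGR1A differences lay within that range and that of PLAUR lay above it.

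**Figure D2:**
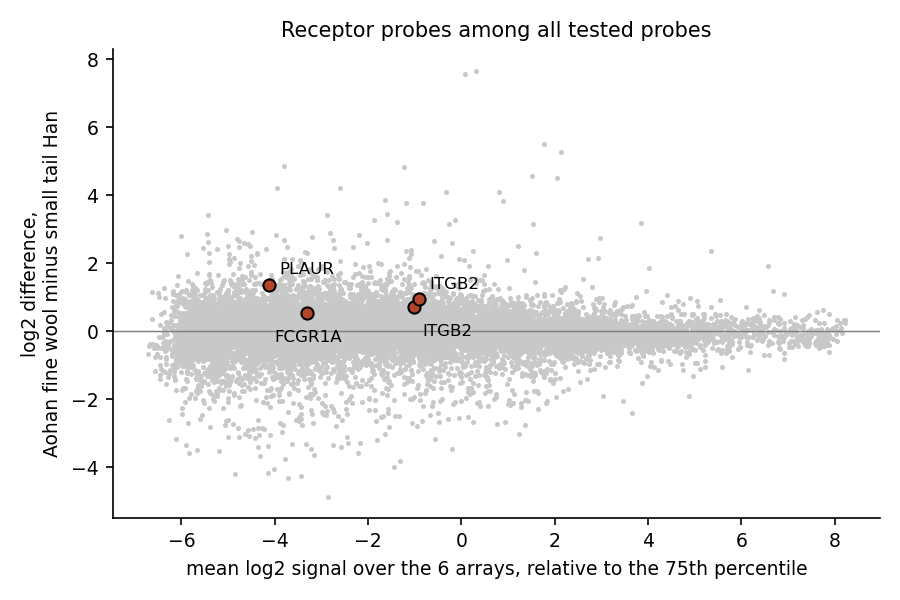
Log2 difference between the breeds (y axis, Aohan minus small tail Han, 0 for no difference) against the mean scaled log2 signal over the 6 arrays (x axis) for the 12481 tested probes (grey) with the 4 receptor probes in red. The receptor probes lie between 0.55 and 1.36 on the y axis, and many probes of similar signal differ by more.

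The size of each difference was set out over 13 ways of scaling, background correction and leaving out animals. The first ITGB2 probe ranged from 0.56 to 0.89, the second from 0.77 to 1.20, PLAUR from 0.55 to 1.70 and FCGR1A from 0.37 to 0.66. Aohan sheep had the higher mean in each of them. The breeds were separated at 4 receptor probes with the 75th percentile, quantile or deposited log2 values, at 3 without the surface correction and at 2, both of ITGB2, with normexp.

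**Figure D3:**
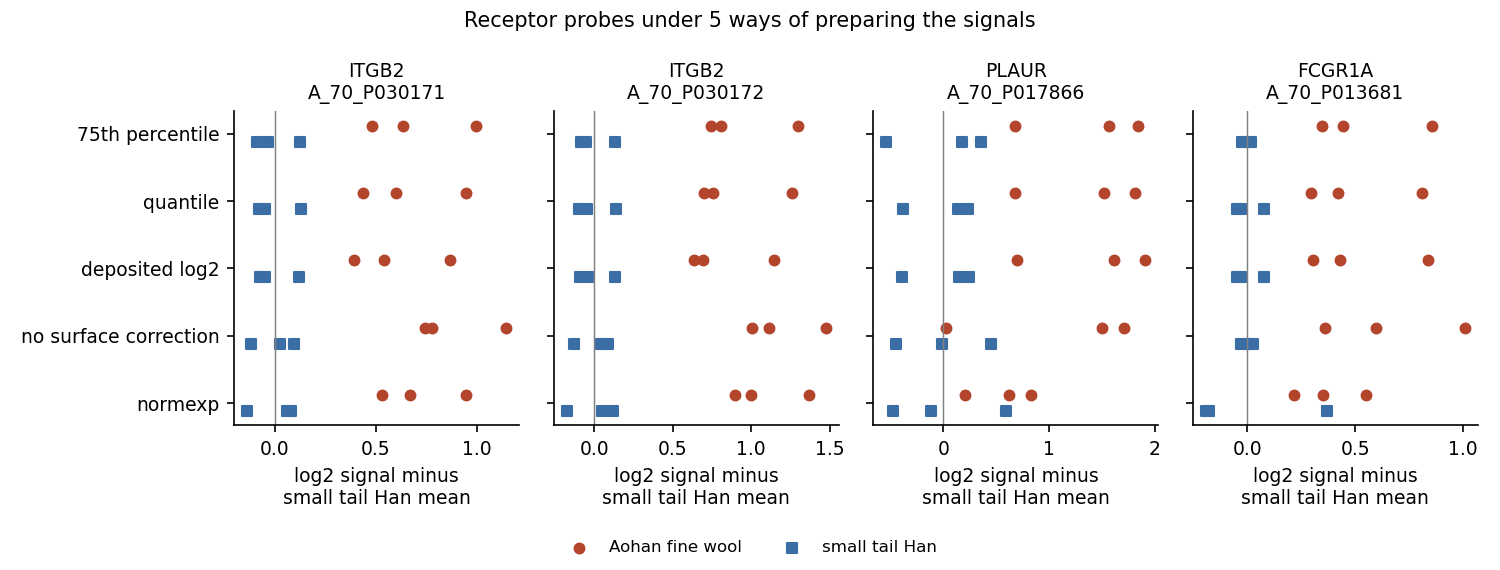
Log2 signal of the receptor probes in each animal, minus the mean of the small tail Han animals (x axis), under 5 preparations of the signals (y axis), with Aohan sheep (circles) drawn above small tail Han sheep (squares) in each. ITGB2 separates the breeds under each setting shown, while PLAUR overlaps without the surface correction and PLAUR and FCGR1A overlap with normexp.

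The partners that ITGB2 needs at the cell surface were hard to see on this array. Of a list of 14 beta2 integrin partners and ligands, 3 had a probe with a RefSeq name and 2 were tested. None was called by limma or by the adjusted methods' test, and 0 had an unadjusted p under 0.05. The median difference of the tested pair was 0.32, beside 0.025 for all tested probes. ITGAX had no probe with a RefSeq name here. ITGAL, which forms LFA-1 with ITGB2, was well above background on 0 of the 6 arrays at both of its probes.

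ITGAM, which forms the complement receptor Mac-1 with ITGB2, read -2.58, -4.73 and -4.78 in Aohan skin, against -4.40, -5.70 and -4.63 in small tail Han skin. Aohan animal 1 stood well above the other 5, which overlapped, and the receptors were not highest in that animal. The difference was 0.88 (SE 0.60, limma adjusted p = 0.377), and it was 0.15 without Aohan animal 1. ICAM1, the endothelial ligand, read -4.77, -4.14 and -4.57 in Aohan skin, against -3.53, -4.77 and -4.49 in small tail Han skin. The breeds overlapped, with a difference of -0.23 (SE 0.35, limma adjusted p = 0.715).

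The endothelial adhesion step before integrin binding uses the selectins. Of 12 endothelial genes listed, 3 were tested, and limma and the adjusted methods' test called 0, with 1 at an unadjusted p under 0.05. SELE differed by -0.39 (SE 0.20, limma adjusted p = 0.229) and SELP by -0.35 (SE 0.19, limma adjusted p = 0.255). EDN1, the vasoconstrictor peptide endothelin, differed by 0.63 (SE 0.23, limma adjusted p = 0.0950), and passed without small tail Han animal 1 (limma adjusted p = 0.0155). At the probe counted for each of these the animals of the breeds did not overlap, as at 34.2% of all tested probes. The nearest values lay only 0.034 apart at SELE, 0.12 at SELP and 0.054 at EDN1. The other SELP probe differed by -0.57 (limma adjusted p = 0.133) without overlap, while the other SELE probe overlapped and was not tested.

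Around PLAUR, the urokinase and plasminogen list had 15 genes, 4 on the array and all 4 tested. Limma and the adjusted methods' test called 0 of them and 0 had an unadjusted p under 0.05, with a median difference of 0.12. PLAU, the ligand of the receptor, read -4.42, -4.45 and -4.28 in Aohan skin, against -4.49, -5.08 and -4.65 in small tail Han skin. The nearest values of the breeds lay only 0.042 apart, and the difference was 0.36 (SE 0.25, limma adjusted p = 0.393).

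MMP2, a gelatinase, read -3.36, -3.29 and -3.26 in Aohan skin, against -3.14, -3.15 and -3.07 in small tail Han skin, without overlap, and differed by -0.18 (SE 0.17, limma adjusted p = 0.532). Its other tested probe also differed by -0.18 (SE 0.28, limma adjusted p = 0.726), but there the breeds overlapped. ANXA2, a plasminogen-binding annexin, differed by 0.10 and the metalloproteinase inhibitor TIMP1 by 0.15 (limma adjusted p = 0.767 and 0.755).

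For FCGR1A, the list of Fc receptors and their signalling held 19 genes, of which 3 were on the array and 2 tested. None passed in limma or in the adjusted methods' test, and 0 had an unadjusted p under 0.05. The median difference was -0.040. FCGR2B, the inhibitory IgG receptor, had an unmarked spot on only 1 Aohan array, where it read -0.045, against 0.27, -0.15 and 0.18 in small tail Han skin, and it was not tested. FCER1A, the alpha chain of the IgE receptor, differed by 0.14 (SE 0.23, limma adjusted p = 0.740) at one probe and by 0.70 (SE 0.36, limma adjusted p = 0.231) at the other. FCGRT, the neonatal Fc receptor that carries IgG across cells, differed by -0.22 (SE 0.25, limma adjusted p = 0.610). FCER1G, the chain that signals for FCGR1A, and FCGR3A had no probe with a RefSeq name here.

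Most markers of myeloid cells did not pass the test. Of 33 monocyte, macrophage and dendritic cell markers, 7 were on the array and tested, 2 were higher in Aohan sheep and 0 lower in limma, and the adjusted methods' test called 0. Their median difference was 0.19, beside 0.025 for all tested probes. Summed over the list, as multiples of the 75th percentile, the level ran from 2.24 to 2.92 in Aohan sheep, against 1.79 to 2.03 in small tail Han sheep. The sum was thus higher in each Aohan animal, but it includes LYZ, whose difference of 2.44 was the largest of the list. Only 2 of the 7 genes, LYZ and SLC11A1, separated the breeds, while CD14, CD86, CD80, TLR2 and TLR4 overlapped. The sum therefore does not show that the markers moved together, and its part in the receptor values was not tested. The defining markers CD68, CD163 and CSF1R had no probe with a RefSeq name here, which leaves CD14 as the check of the label.

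CD14, the monocyte receptor for bacterial lipopolysaccharide, was well above background on all 6 arrays and did not follow the receptors. It read -0.55, -1.79 and -1.26 in Aohan skin, against -1.19, -1.29 and -1.69 in small tail Han skin. Aohan animal 2, the highest at each receptor probe, was the lowest of the 6 for CD14. The difference was 0.19 (SE 0.30, limma adjusted p = 0.721), and the other CD14 probe differed by -0.31 (limma adjusted p = 0.420). CD86, a costimulatory ligand of antigen-presenting cells, differed by 0.30 (SE 0.22, limma adjusted p = 0.403).

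The 2 monocyte and macrophage genes that passed were LYZ and SLC11A1. LYZ, lysozyme, read -2.32, -0.70 and -1.51 in Aohan skin, against -3.22, -4.44 and -4.18 in small tail Han skin. It was highest in Aohan animal 2 and lowest in small tail Han animal 2, as PLAUR was, with a difference of 2.44 (SE 0.43, limma adjusted p = 0.00729). SLC11A1, a metal transporter of the phagosome, read -2.28, -2.60 and -2.75 in Aohan skin, against -3.59, -3.59 and -3.06 in small tail Han skin. Its difference was 0.87 (SE 0.22, limma adjusted p = 0.0318), while its other probe differed by 0.53 (limma adjusted p = 0.250). Its call was lost without any one animal other than small tail Han animal 3 (limma adjusted p = 0.0587 to 0.130), and with normexp the difference was 0.33 (limma adjusted p = 0.552) and without the surface correction 0.58 (limma adjusted p = 0.158).

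Of 19 neutrophil markers, 4 were tested, 1 was higher and 0 were lower in limma, with a median difference of 0.60. The adjusted methods' test also called 1, LTF. The summed level was 6.18 to 15.2 in Aohan sheep, against 2.76 to 4.66 in small tail Han sheep. CATHL3 alone made up 63.7% to 89.4% of it in Aohan sheep and 80.6% to 90.2% in small tail Han sheep. Without CATHL3 the sum was 1.61 to 2.24 in Aohan sheep, against 0.400 to 0.537 in small tail Han sheep. Of the genes that remain, LTF, SC5 and BAC5, only LTF was higher in Aohan sheep. LTF read 0.59, 1.08 and 0.56 in Aohan skin, against -1.44, -2.23 and -2.03 in small tail Han skin. SC5 read -2.93, -3.27 and -3.19, against -2.77, -2.66 and -2.46, so the split of this sum is that of LTF. LTF, the iron-binding protein lactoferrin, was higher by 2.64 (SE 0.24, limma adjusted p = 0.000201). CATHL3, a cathelicidin, differed by 1.24 (SE 0.42, limma adjusted p = 0.0812), with overlap between the breeds, and it passed in 5 alternatives. These were normexp (limma adjusted p = 0.000615), quantile normalization (limma adjusted p = 0.0424), the deposited log2 values (limma adjusted p = 0.0451), the replicate block (limma adjusted p = 0.0218) and leaving out Aohan animal 2 (limma adjusted p = 0.0226). The cathelicidins SC5 and BAC5 differed by -0.50 and -0.034 and did not pass. LTF and lysozyme are also made by skin glands, and the part of neutrophil number in the receptor values was not tested.

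Signals that recruit or activate myeloid cells moved in both directions. Of 31 growth factors, chemokines and inducers, 15 were on the array and 12 tested, with 4 higher and 1 lower in limma and a median difference of 0.53. The adjusted methods' test called only 1 of the 12, CXCL8 (methods' test adjusted p = 0.0233). CXCL8, the neutrophil chemokine interleukin-8, was higher by 2.27 (SE 0.19, limma adjusted p = 0.000160) at one probe and by 4.23 (SE 0.27, limma adjusted p = 5.36e-05) at the other, where 2 of 3 small tail Han arrays were well above background. IL6 was higher by 2.41 (SE 0.44, limma adjusted p = 0.00876), and with normexp the difference was 0.76 (limma adjusted p = 0.231). TGFB1 and IL10, which restrain macrophage activation, were higher by 0.82 and 0.79 (limma adjusted p = 0.0192 and 0.0222). CXCL1, also a neutrophil chemokine, was lower by 0.78 in Aohan sheep (difference -0.78, SE 0.15, limma adjusted p = 0.0118). Without small tail Han animal 2, the calls of TGFB1, IL10 and CXCL1 were lost (limma adjusted p = 0.0831, 0.0934 and 0.0659). TGFB1 and CXCL1 were also lost without small tail Han animal 3 (limma adjusted p = 0.0842 and 0.0606), and IL10 without Aohan animal 3 (limma adjusted p = 0.0893). IFNG, which raises FCGR1A in human monocytes, read -3.08, -3.43 and -3.42 in Aohan skin, against -3.26, -2.71 and -2.71 in small tail Han skin. Its difference was -0.42 (SE 0.22, limma adjusted p = 0.252).

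**Figure D4:**
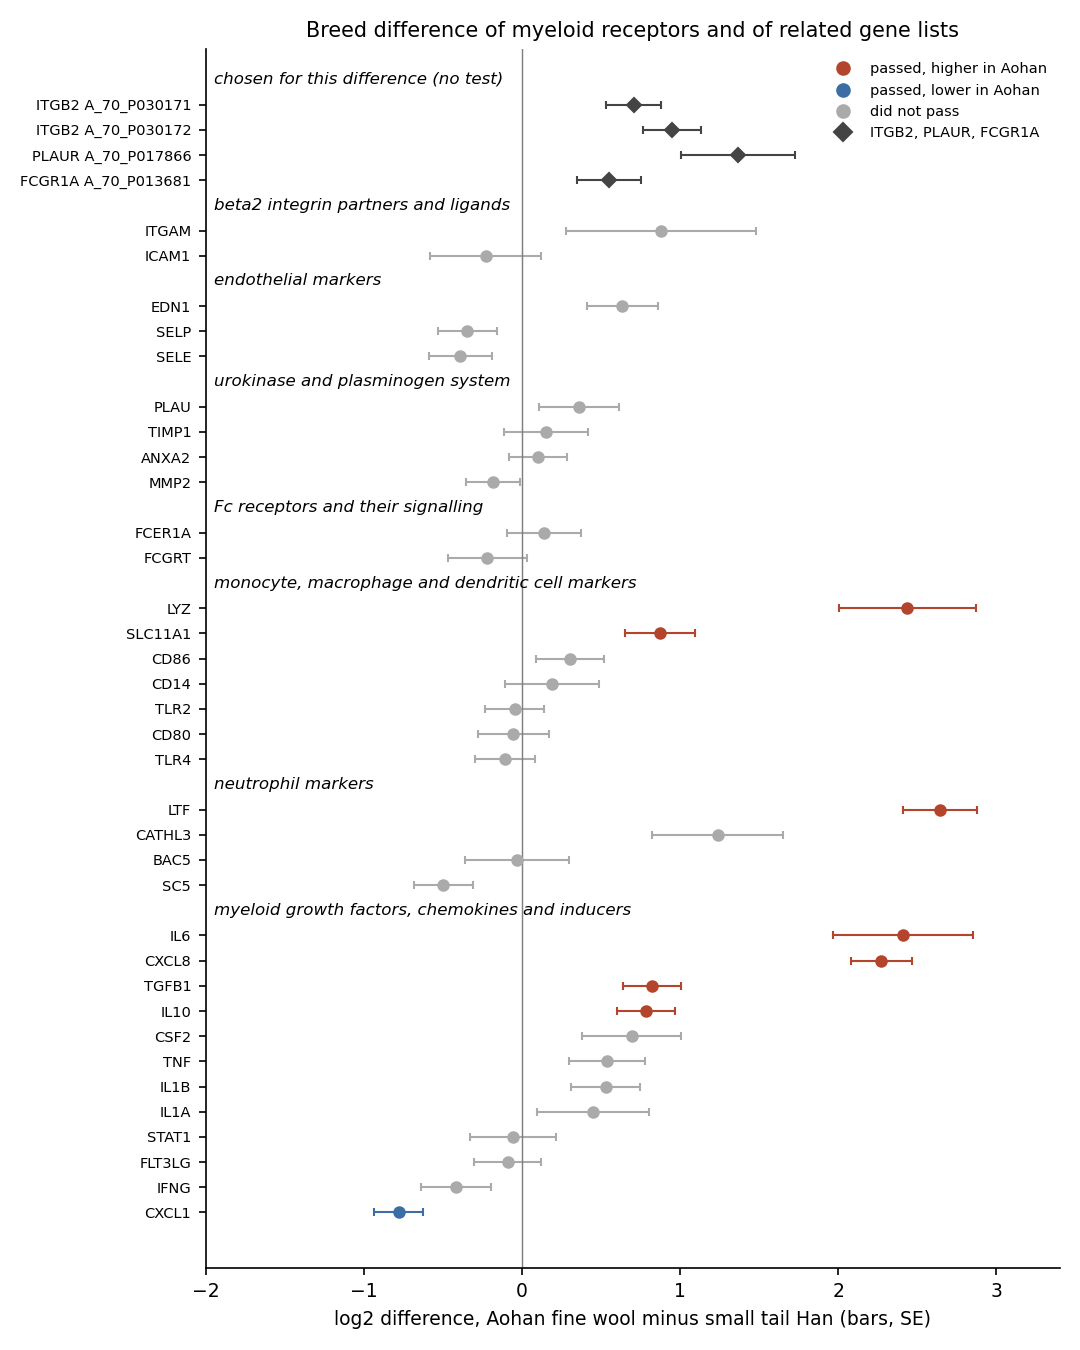
Log2 difference with its SE (x axis, Aohan minus small tail Han) for the receptor probes (diamonds) and for tested genes of the partner, marker and signal lists (circles, y axis), in red or blue where a gene passed at a limma adjusted p under 0.05 and grey where it did not. The integrin partner, urokinase, Fc receptor and endothelial lists hold no gene that passed.

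Markers of other cells in skin, among them other leukocytes, were read for the same animals. ITGB2 belongs to the leukocyte integrins in general, so it is not a marker of myeloid cells alone. Of 8 tested T and NK cell genes, CD3D and CD3E, chains of the T cell receptor complex, were higher, by 0.92 and 1.11 (limma adjusted p = 0.0362 and 0.0135), and 0 were lower. The other CD3D probe differed by 0.73 (limma adjusted p = 0.0880) and the other CD3E probe by 1.05 (limma adjusted p = 0.0104). The adjusted methods' test called 0 genes of this list. The summed T and NK level was 7.25 to 8.59 in Aohan sheep, against 3.21 to 5.69 in small tail Han sheep. CD3E alone made up 64.5% to 66.6% of it in Aohan sheep and 55.5% to 58.6% in small tail Han sheep. Without CD3E the sum, which still includes CD3D, was 2.45 to 2.98, against 1.39 to 2.35. The 6 genes that did not pass overlapped between the breeds, so the sum does not show that the markers moved together. Of 3 mast cell and eosinophil genes, tryptase TPSB2 and the eosinophil growth factor IL5 were higher, by 0.75 and 0.99 (limma adjusted p = 0.0334 and 0.0162). The adjusted methods' test called 0 of the 3. The other TPSB2 probe differed by 0.49 (limma adjusted p = 0.147), with overlap between the breeds. CCR3, the eotaxin receptor of eosinophils, differed by 0.069 (limma adjusted p = 0.934) at the probe counted, and was lower in Aohan sheep at its other probe (difference -0.89, SE 0.23, limma adjusted p = 0.0327), where the breeds did not overlap. The summed mast cell and eosinophil levels overlapped, at 2.21 to 2.39 in Aohan sheep, against 1.17 to 2.85 in small tail Han sheep. The calls of CD3D and TPSB2 were lost without any one of Aohan animals 1, 2 and 3 or small tail Han animal 2 (limma adjusted p = 0.0545 to 0.141), that of CD3D also without small tail Han animal 1 (limma adjusted p = 0.0614), and that of CD3E without small tail Han animal 2 (limma adjusted p = 0.0633). With normexp the TPSB2 difference was 0.29 (limma adjusted p = 0.472). Without the surface correction TPSB2 differed by 0.40 and CD3E by 0.86 (limma adjusted p = 0.385 and 0.0594). None of the tested B cell, keratinocyte and follicle, fibroblast and blood genes passed in limma or the adjusted methods' test, and 0 had an unadjusted p under 0.05. Over all 13 lists, 51 genes were tested, 11 were higher and 1 was lower. The part of these other cells in the receptor values was not tested.

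The genes whose pattern over the 6 arrays was most like each receptor were sought among 421 named genes by Pearson's r. The 6 points share the split between the breeds, so that any gene that separates them scores high, and r is a description only. For ITGB2 at its second probe they were IGF2, the fetal growth factor (r = 0.998), the cytidine deaminase APOBEC3F (r = 0.985) and CXCL8 (r = 0.979). IGF2 read -2.57, -2.03 and -2.54 in Aohan skin, against -3.56, -3.59 and -3.36 in small tail Han skin, in the same order of animals as ITGB2. It differed by 1.12 (SE 0.21, limma adjusted p = 0.00871). With the breed means taken away, r with ITGB2 was 0.998 for IGF2, 0.890 for APOBEC3F and 0.975 for CXCL8.

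For PLAUR the most alike were the other probe of APOBEC3F (r = 0.983), the adenosine receptor ADORA3 (r = 0.983) and IL6 (r = 0.953). Their r without the breed means was 0.945, 0.963 and 0.844. ADORA3 differed by 0.55 (SE 0.18, limma adjusted p = 0.0769), below what passed. For FCGR1A they were LOC100101238 (r = 0.983), IGF2 (r = 0.968) and NFKBIA, the inhibitor of NF-kappaB (r = 0.967), with 0.937, 0.914 and 0.905 once breed means were taken away. NFKBIA was higher by 0.86 (SE 0.16, limma adjusted p = 0.00968; 0.46 with normexp, limma adjusted p = 0.109, and 0.47 without the surface correction, limma adjusted p = 0.198) and LOC100101238 differed by 0.58 (SE 0.18, limma adjusted p = 0.0594). IGF2 stood among the 3 nearest genes of both ITGB2 and FCGR1A, and CD14, ITGAM, PLAU and FCGRT were not among the 3 nearest of any receptor. A cut at 3 of 421 genes leaves out nearly every gene, so it does not show that these are unlike the receptors.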

How the data were processed

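The 6 samples were hybridised to 1-colour Agilent sheep arrays. The authors scanned them and the deposited scanner files hold Cy3 intensity per spot, background-subtracted by their software (Agilent Feature Extraction, version 10.5.1.1 in labels and headers), without normalization between arrays. The deposited files also hold marks for spots above background, saturated or outlying, and other spot records. The authors also deposited a table of log2 values, already normalized across the arrays by a method not given in the sources used here (median 8.31 on each array). It served as an alternative.

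Control and outlier-marked spots were dropped, log2 intensities were averaged per probe and the array's 75th percentile was subtracted. Probes well above background on 3 or more arrays that kept 2 or more values in each breed were tested with limma 3.58.1 in R 4.3.3 (intensity trend, two-sided, Benjamini-Hochberg at 0.05 over 12481 probes). The code was tested on simulated data. Of 758 probes with a RefSeq mRNA accession, 734 were named, for 476 symbols, through the sheep RefSeq table of assembly ARS-UI_Ramb_v3.0. Each gene in a list counted once, by 1 probe. The receptors, lists and the rule for named genes were chosen with earlier results of these data known. That rule takes the 3 receptors, their direct partners and the defining monocyte markers, in each described list the passing genes and up to 4 of lowest p, and the 3 genes most like each receptor. For 1 gene under this rule, and in its list, values are not reported here.

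Alternatives were quantile and median scaling, normexp (offset 50, on median spot signals), the deposited log2 values, outlier spots kept, no filter, a filter on all 6 arrays, no trend, a block on replicate number, leaving out each animal and the methods' t-test, called the methods' test in the text. Omitting the surface correction was added after seeing the data. Array number limits the precision. Tables and figures used Python 3.11.15, numpy 2.4.6, pandas 2.3.3 and matplotlib 3.10.9.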

Additional observations from a re-analysis of the deposited data

How the results depend on the processing

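The difference of the 3 receptors kept its direction in all alternatives run, with PLAUR at 0.55 with normexp. The 1893 probes that passed (945 higher, 948 lower in Aohan sheep) were 712 (321 and 391) with the methods' t-test adjusted, 3234 (1686 and 1548) with it unadjusted, and 788 to 2248 (347 to 1230 and 441 to 1018) with each animal left out in turn. With the replicate number as a block they were 1234 (565 higher). Same-numbered animals did not deviate together (r = -0.22, -0.37 and 0.28), so the numbers do not pair them. Receptor probes that passed numbered 3, and 0 with the adjusted t-test, 2 with the block and 0 to 3 with animals left out. The 11 list genes higher were 2 with the adjusted t-test and 5 to 11 with animals left out. The 1 lower was 2 with normexp, 0 with the adjusted t-test, 5 unadjusted and 0 to 2 with animals left out. Of 589 alternatives over the 33 other named genes, 499 kept the direction and the side of the threshold, 62 lost a call, 14 gained one and 14 turned the direction. Directions turned only for genes that did not pass: BAC5 (0.080 without the surface correction, -0.30 to 0.13 with animals left out), CD14 (-0.18 with normexp, -0.21 without the surface correction, -0.14 to 0.49), FCER1A (-0.064 to 0.41), ICAM1 (-0.48 to 0.14), MMP2 (0.032 and 0.082 with normexp and without the surface correction) and TIMP1 (-0.021 to 0.36). The causes were not tested. With 3 animals a breed, small differences could not be told from none.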
